A study of Mus musculus with 6 samples.

Results

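CD103 is the alpha E chain of an integrin, encoded by Itgae, and it reaches the surface of T cells paired with the beta 7 chain encoded by Itgb7. The ligand of that pair is E-cadherin, encoded by Cdh1, and the catenins encoded by Ctnna1, Ctnnb1, Ctnnd1 and Jup link E-cadherin to the cell's actin skeleton. These 7 genes were read on 15 probe sets, among 18193 genes read on 34945 probe sets that carry a single gene symbol. The genes were chosen by the measured rise of Itgae and Cdh1 in the comparison described here, which were among the largest of the array, and the others were added for their known roles. The values of all 7, their standard errors and intervals included, are therefore given as a description, with no p-value, and counts of calls among them only beside the share over all genes.

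Total RNA was measured on 6 Affymetrix mouse arrays, 1 per sample, in cytotoxic T cells of C57Bl/6 mice that carry the P14 T cell receptor transgene, which recognises a viral peptide called gp33. Spleen cells had been activated with gp33 for 24 h and then infected with a retrovirus that encodes HDAC7, a class IIa histone deacetylase, in a phosphorylation-deficient form fused to GFP. The 3 GFP positive samples were sorted as cells that carry the mutant, and the 3 GFP negative samples as cells of the infected cultures without detectable GFP, which the labels call control. Both groups thus share the transgene, the activation and the exposure to virus, with no empty-vector or unmutated HDAC7 arm among the samples used. Biological replicates are named in the labels without a word on what was separate, so p-values and SDs measure only the spread between these samples.

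E-cadherin binds E-cadherin on a neighbouring cell through its outer domains, and its tail carries beta-catenin or plakoglobin, which hold alpha-catenin, while p120 catenin binds nearer the membrane and slows its uptake. Beta-catenin also acts in the nucleus, where it joins TCF and LEF factors at the end of Wnt signalling. In T cells CD103 is best known from resident memory cells and intraepithelial lymphocytes, which it holds to epithelium, and TGF-beta is its textbook inducer.

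The signal is on a log2 scale with array medians of 1.62 to 1.72. Control probe sets named TrpnX, made for a bacterial gene, averaged 0.66 on GFP positive and 0.64 on GFP negative arrays, so values near these lie close to background. A level of 1.27, the 40th percentile of probe sets, was used as the dim level. The Hdac7 probe set that represents the gene read 8.09, 8.18 and 8.17 on GFP positive arrays and 4.86, 4.83 and 4.81 on GFP negative arrays, while a second one differed by -0.55 in GFP positive cells. GFP positive 3 stood apart in that all 18 hybridisation spikes were brightest there, with a mean of 8.50 against 8.07 to 8.22 on the other arrays, and GFP negative 1 had the highest 18S ribosomal RNA signal at the 5′ end, 11.02 against 8.98 to 10.20. All 9 CD8 T cell and cytotoxic markers on the array lay past the dim level, of which 5 rose and 2 fell. The 2 that fell were Gzmb, the brightest of the 9, and Cd2. Gzmb averaged 11.58 in GFP positive and 12.58 in GFP negative cells (limma adjusted p = 2.1e-04). Cd2 changed by -1.03 (limma adjusted p = 1.3e-04). Cd8a, a chain of the CD8 co-receptor, rose by 1.24 (limma adjusted p = 3.3e-04) and read at least 8.84 on every array.

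Of the 7 genes, Itgae and Cdh1 differed most between the groups. In GFP negative cells Cdh1 lay near background and Itgae read at most 2.24, and both read at least 4.64 on every GFP positive array. Itgb7, Ctnna1 and the brightest probe set of Ctnnb1 were higher by 0.45 to 0.78 on the log2 scale. Ctnnd1 and Jup differed by -0.19 and -0.08 and their arrays overlapped.

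Itgae, the alpha E chain, has a pair of probe sets. The one that represents the gene read 6.56, 5.16 and 5.95 on GFP positive arrays 1 to 3, against 1.71, 1.91 and 1.67 on GFP negative arrays 1 to 3. Every GFP positive array lay above every GFP negative one, by 3.25 at the narrowest between arrays of the same number. The means were 5.89 ± 0.71 in GFP positive and 1.76 ± 0.13 in GFP negative cells (SD, n = 3 each), a difference of 4.13 ± 0.30 (SE). The suffix of this probe set, s_at, marks probes that may match more than 1 transcript.

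The second Itgae probe set read 6.15, 4.64 and 5.51 on GFP positive arrays and 1.77, 1.91 and 2.24 on GFP negative arrays. It differed by 3.46 ± 0.33 (SE), somewhat less than the first, with the same array highest and the same array lowest among the GFP positive 3. Both probe sets thus gave the gene the same direction, with a smaller difference on the second.

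Cdh1, which encodes E-cadherin, has a single probe set. It read 5.90, 4.64 and 4.92 on GFP positive arrays, against 0.75, 0.76 and 1.20 on GFP negative arrays. The GFP negative values lay close to the TrpnX controls and under the dim level on all 3 arrays. The means were 5.15 ± 0.66 in GFP positive and 0.90 ± 0.26 in GFP negative cells (SD, n = 3 each), a difference of 4.25 ± 0.29 (SE). Cdh1 therefore passed the filter on dim genes only through the GFP positive arrays, and no fold is given for it or for Itgae, since a fold against a level near background has no firm denominator.

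The size of these differences depends on how background is treated. When 8 linear units were added to every signal ahead of the log step, the Itgae probe sets differed by 2.57 and 2.12 and Cdh1 by 2.16. With 32 added, the differences were 1.39, 1.10 and 1.02. The brighter members shrank less under the same additions, with Itgb7 at 0.59, the 2 bright Ctnna1 probe sets at 0.66 and 0.55 and the brightest Ctnnb1 probe set at 0.43 after adding 32. Both additions keep the order of the arrays, so the groups stayed apart for Itgae and Cdh1 in each.

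**Figure D1:**
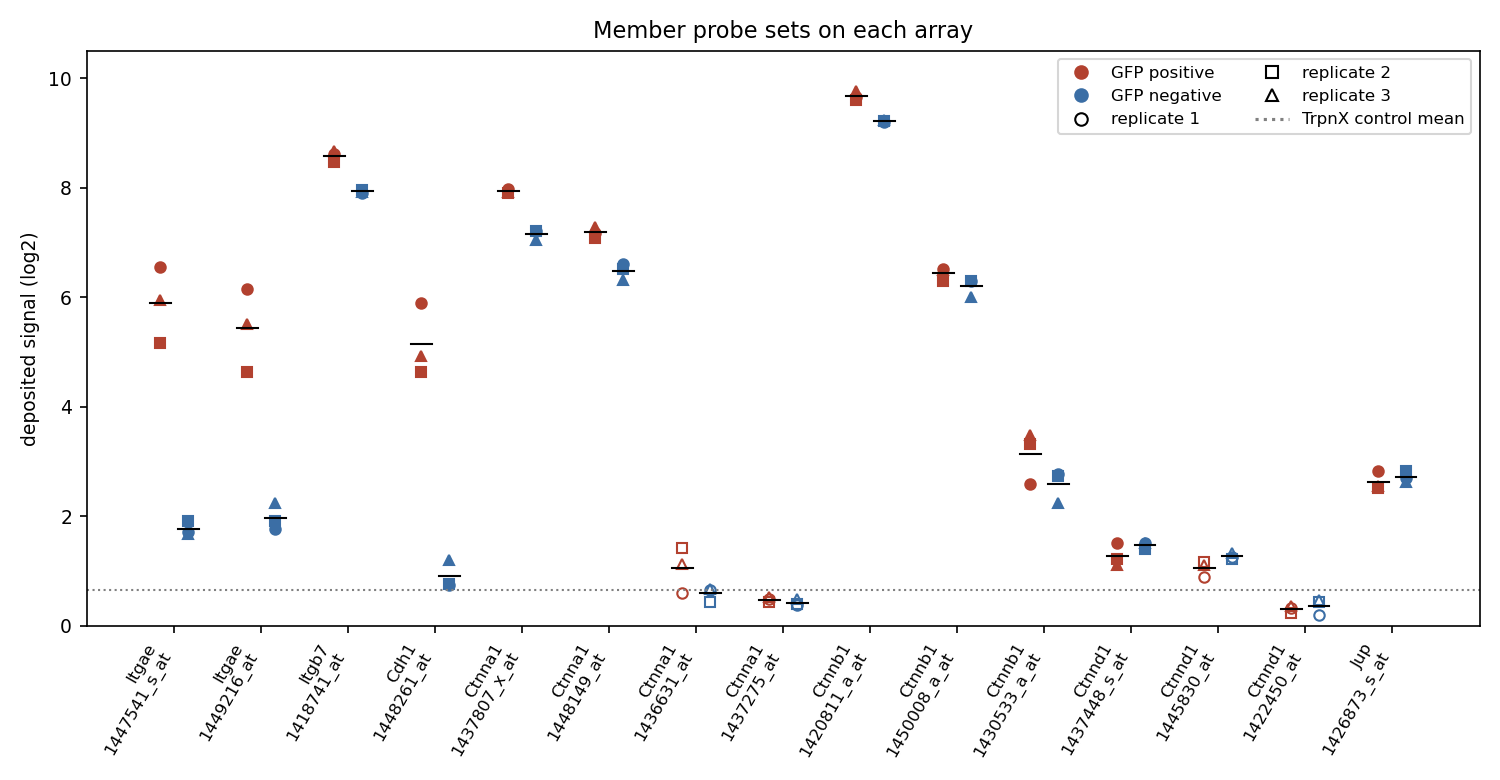
Deposited log2 signal (vertical axis) of the 15 member probe sets (horizontal axis) on each array, with GFP positive arrays left of GFP negative ones, a marker shape for each replicate number, bars at group means, open markers for the 4 probe sets under the dim level and a dotted line at the mean of the TrpnX controls. Itgae and Cdh1 sit at 4.64 to 6.56 on GFP positive arrays and at 0.75 to 2.24 on GFP negative ones, while the groups overlap for Jup and for the Ctnnd1 probe set that represents the gene.

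The spread among GFP positive arrays was wide for both genes. Their SDs of 0.71, 0.76 and 0.66 on the log2 scale lay at the 99.5th, 99.6th and 99.3rd percentiles of the SDs of the 27022 probe sets tested. In all 3 probe sets GFP positive 1 was highest and GFP positive 2 lowest. Against the group mean, GFP positive 1 stood at 0.67 and 0.72 for the Itgae probe sets and at 0.74 for Cdh1, and GFP positive 2 at -0.73, -0.79 and -0.51. The Hdac7 probe set ran from 8.09 to 8.18 on the same arrays, with its lowest value on GFP positive 1. With 3 arrays this shared order is a description only. In bulk RNA, more cells that express a gene and more RNA of it per cell cannot be told apart.

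**Figure D2:**
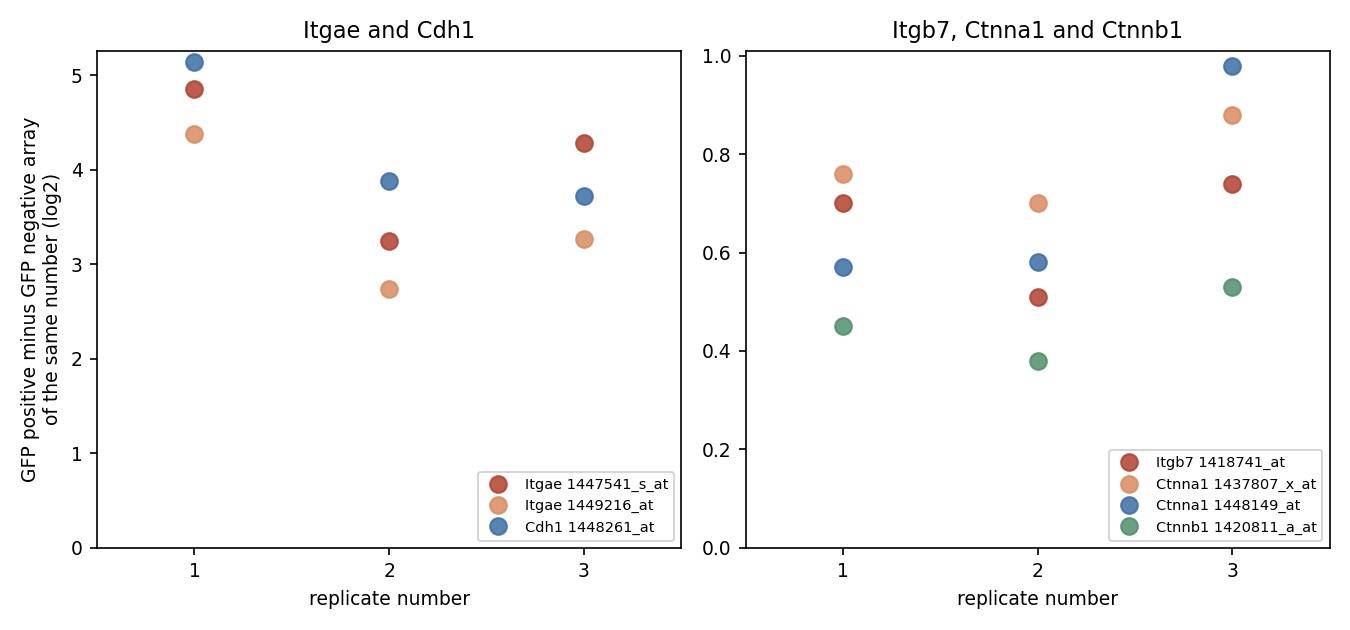
Difference in log2 signal between the GFP positive and the GFP negative array of the same replicate number (vertical axis), for each replicate number (horizontal axis), with 1 point for each of the 7 probe sets whose groups stood apart upward. The differences of Itgae and Cdh1 (left panel) run from 2.74 to 5.14 and are largest at number 1, and those of the Itgb7 probe set, the 2 brightest of Ctnna1 and the brightest of Ctnnb1 (right panel) run from 0.38 to 0.98, with the largest at number 3.

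Itgb7 encodes the beta 7 chain, the partner of CD103 and also of the alpha 4 chain. It read 8.61, 8.47 and 8.67 on GFP positive arrays and 7.91, 7.96 and 7.93 on GFP negative arrays. The groups did not overlap, and the gene was already bright in GFP negative cells, where the 3 arrays ran from 7.91 to 7.96. The means were 8.58 ± 0.10 in GFP positive and 7.93 ± 0.03 in GFP negative cells (SD, n = 3 each), a 1.57-fold higher level (difference 0.65 ± 0.09, SE). The alpha 4 gene Itga4, which is no member, read 5.92 ± 0.17 in GFP positive and 4.53 ± 0.22 in GFP negative cells (SD, n = 3 each) and rose by 1.39 (limma adjusted p = 1.9e-04, and 0.75 with 32 added). Both alpha chains that pair with beta 7 thus had more signal in GFP positive cells.

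RefSeq promoter windows on GRCm38.p6, of 250 bases before and 50 after a start site, were at hand for 4 of the 7 members. There was none for Itgae, Cdh1 or Ctnna1, so the search says nothing about these genes. Of the 4, Itgb7 and Ctnnb1 had more signal in GFP positive cells and are shown so that the searched letters can be seen. The search covered E-boxes (CANNTG, and within it CAGGTG or CACCTG, which ZEB and SNAIL repressors of E-cadherin bind), TGTGGT of RUNX factors, AGATAA of GATA factors, CAGACA of SMAD factors and the MEF2 motif, on both strands. Capitals mark matches to any of them, and the Ctnnb1 window, the first of 2 start sites, has none.
Itgb7 chr15:102231886-102232185, minus strand: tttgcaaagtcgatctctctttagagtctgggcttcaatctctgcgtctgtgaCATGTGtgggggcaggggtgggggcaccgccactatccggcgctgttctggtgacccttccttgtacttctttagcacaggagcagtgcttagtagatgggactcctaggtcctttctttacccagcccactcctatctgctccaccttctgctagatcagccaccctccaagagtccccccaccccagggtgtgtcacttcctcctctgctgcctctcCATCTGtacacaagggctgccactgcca
Ctnnb1 chr9:120933150-120933449, plus strand: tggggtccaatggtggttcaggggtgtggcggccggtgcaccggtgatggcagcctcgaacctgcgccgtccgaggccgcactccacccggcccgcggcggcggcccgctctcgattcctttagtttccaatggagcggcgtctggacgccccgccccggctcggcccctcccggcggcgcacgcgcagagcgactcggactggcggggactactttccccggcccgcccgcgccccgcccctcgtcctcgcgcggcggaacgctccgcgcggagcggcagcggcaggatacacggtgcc

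The Itgb7 window holds 2 E-boxes, which begin at positions -197 and 22, counted from 0 at the start site, and no match to the other motifs. An E-box of that general form is found in 72.3% of the 32851 windows in the table, and the others in 16.8% (RUNX), 11.2% (GATA), 21.0% (SMAD) and 3.19% (MEF2), with CAGGTG or CACCTG in 20.2%. The second Ctnnb1 window and the Jup window hold no match either, and the 2 windows of Ctnnd1 hold 1 E-box between them. These matches describe the letters of the windows only.

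Ctnna1 encodes alpha-catenin, the link between the cadherin complex and actin. Its brightest probe set read 7.97, 7.91 and 7.92 on GFP positive arrays and 7.21, 7.21 and 7.04 on GFP negative arrays. The next brightest read 7.18, 7.09 and 7.29 on GFP positive arrays and 6.60, 6.51 and 6.31 on GFP negative arrays. On both, the groups stood apart, with differences of 0.78 ± 0.09 and 0.71 ± 0.10 (SE), or 1.72-fold and 1.64-fold higher levels. The suffix x_at of the brightest marks probes that can match unrelated transcripts, but the second has no such mark and gave nearly the same value. The other 2 probe sets of the gene lay under the dim level on average, with means of 1.06 and 0.48 in GFP positive and 0.59 and 0.43 in GFP negative cells, and their arrays overlapped.

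Ctnnb1 encodes beta-catenin and has 3 probe sets. The brightest read 9.65, 9.60 and 9.77 on GFP positive arrays and 9.20, 9.22 and 9.24 on GFP negative arrays, a 1.37-fold higher level (difference 0.45 ± 0.08, SE). The second, at 6.52, 6.30 and 6.50 on GFP positive and 6.30, 6.30 and 6.01 on GFP negative arrays, differed by 0.23 ± 0.11 (SE), with a 95% interval of -0.02 to 0.49. Its groups touched at 6.30, so it did not separate them. The third and dimmest ran from 2.59 to 3.48 on GFP positive and from 2.25 to 2.78 on GFP negative arrays and overlapped too, with a difference of 0.55 ± 0.24 (SE). All 3 differences were positive, and only the brightest kept the groups apart.

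Ctnnd1 encodes p120 catenin, which stabilises cadherin at the membrane. The probe set that represents it read 1.51, 1.22 and 1.12 on GFP positive arrays and 1.51, 1.41 and 1.51 on GFP negative arrays. The difference was -0.19 ± 0.11 (SE), with a 95% interval of -0.45 to 0.07. The other 2 probe sets lay under the dim level, and on one of them the GFP positive arrays, at 0.90, 1.17 and 1.11, were all below the GFP negative ones, at 1.26, 1.23 and 1.33. At these levels the arrays give no measure of p120 catenin far from background in either group.

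Jup encodes plakoglobin, also called gamma-catenin, which can take the place of beta-catenin on the cadherin tail. It read 2.82, 2.52 and 2.56 on GFP positive arrays and 2.71, 2.82 and 2.62 on GFP negative arrays. The groups overlapped, and the difference was -0.08 ± 0.11 (SE) with a 95% interval of -0.33 to 0.16. That interval leaves room for a small change either way.

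**Figure D3:**
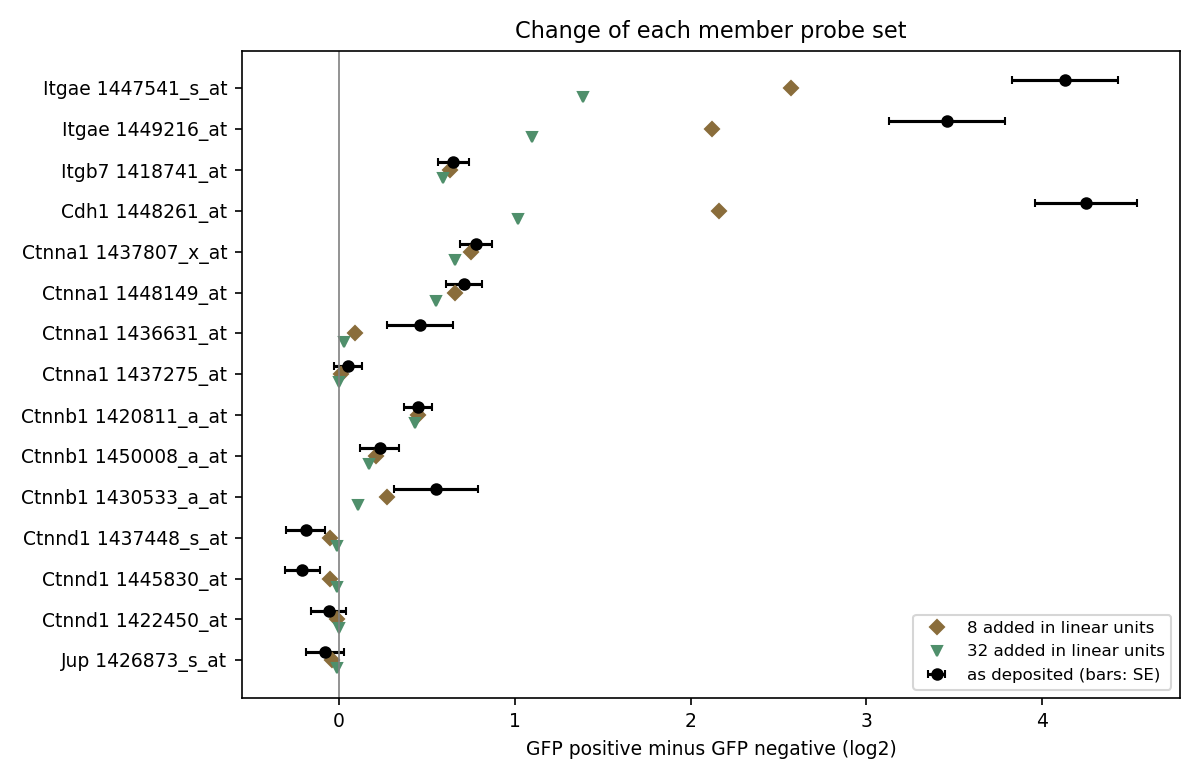
Difference in log2 signal, GFP positive minus GFP negative (horizontal axis), for the 15 member probe sets, as deposited with SE bars and with 8 or 32 linear units added. The differences of Itgae and Cdh1 shrink from 4.13, 3.46 and 4.25 as deposited to 1.39, 1.10 and 1.02 with 32 added, and those of Itgb7 and the brightest Ctnna1 and Ctnnb1 probe sets shrink less, to 0.59, 0.66 and 0.43.

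Counted by gene, 5 of the 7 members were called higher and 0 lower in a limma fit over all 13194 genes tested, in which 24.6% of genes were called higher. The arrays of 5 members did not overlap and lay higher in GFP positive cells, against 29.7% of all genes tested. By probe set, 11 of the 15 lay past the dim level, and 7 of them were called higher, where 19.3% of 27022 probe sets were. The groups did not overlap upward on 7 member probe sets, against 25.9% of probe sets tested. Since the members were chosen on this comparison, and Cdh1 passed the dim level only through its GFP positive arrays, nothing is read from these counts.

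Left-out arrays kept the sign of each member probe set, and moved the small differences most in proportion. Without GFP positive 3, the array with bright spikes, the differences were 4.09 and 3.43 for Itgae, 4.37 for Cdh1, 0.61 for Itgb7, 0.79 and 0.66 for the 2 bright Ctnna1 probe sets and 0.40 for the brightest Ctnnb1 probe set. Over all 6 single left-out arrays, the first Itgae probe set ranged from 3.79 to 4.49 and Cdh1 from 3.88 to 4.51. The representing Ctnnd1 probe set ranged from -0.31 to -0.11 and Jup from -0.18 to -0.03. The second Ctnnb1 probe set ranged from 0.14 to 0.30 and the dimmest from 0.37 to 0.82.

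Genes with the profile most like Itgae over the 6 arrays, by Pearson correlation, were Crebrf, Fbxo11, Sntb2, Cd72 and Cpd, with r from 0.9977 to 0.9984. Those most like Cdh1 were Cotl1, Ncoa2, Stk4, Tram1 and Phka2, with r from 0.9967 to 0.9987. These correlations mostly read the difference between 2 groups of 3 arrays, since 1102 of 13187 other genes had r above 0.95 with Itgae and 1035 with Cdh1. Itgae and Cdh1 correlated with each other at 0.9929. Of the 10 genes, Cpd, a carboxypeptidase gene, came closest in size with a rise of 3.08, at 4.38, 3.46 and 4.25 on GFP positive and 0.81, 1.09 and 0.95 on GFP negative arrays, and like Itgae it was lowest on GFP positive 2. As with Cdh1, the GFP negative values of Cpd lay under the dim level, so it passed the filter only through its GFP positive arrays. The other Cpd probe sets past the dim level changed by -0.07 to 0.85. Apart from Cpd, the 10 genes rose by 0.56 (Fbxo11) to 1.15 (Cd72), far less than Itgae or Cdh1 on the deposited scale.

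Markers of other cells that carry CD103 or E-cadherin were read beside these values. Markers under the dim level were not tested. Of 14 epithelial markers on the array, 10 were past that level, of which 1 rose. The summed linear signal of the 14 was 60.6 to 74.9 on GFP positive and 54.2 to 57.3 on GFP negative arrays. The one that rose was Epcam, at 3.72, 4.99 and 4.72 on GFP positive and 2.53, 3.23 and 3.00 on GFP negative arrays (limma adjusted p = 0.0055). It was lowest on GFP positive 1, where Cdh1 was highest, and its other probe set past the dim level changed by -0.22. Its call was lost without GFP negative 1 and GFP positive 3 (a change of 1.24, adjusted p = 0.078). The keratins Krt8, Krt18 and Krt19 averaged 1.54, 0.81 and 1.02 in GFP positive and 1.48, 0.91 and 1.07 in GFP negative cells, near or under the array medians. Of 10 dendritic cell markers, 9 were past the dim level, of which 0 rose and 3 fell. Their sums were 91 to 111 on GFP positive and 80.4 to 114 on GFP negative arrays. The brightest, H2-Ab1, averaged 5.94 in GFP positive and 5.54 in GFP negative cells and did not pass. H2-Aa read 4.17 on GFP negative 3 and at most 1.97 on any other array. Xcr1, the dimmest, averaged 0.76 in GFP positive and 0.98 in GFP negative cells. Of 4 regulatory T cell markers, 3 were past the dim level. Of these, Ikzf4 rose by 0.96, and the brightest, Tnfrsf4, changed by -0.76 and did not pass. Foxp3, which defines these cells and lay under the dim level, averaged 0.75 in GFP positive and 1.19 in GFP negative cells. Of 8 mast cell markers, 2 were past the dim level, of which 0 rose and 2 fell. Of 7 B cell markers, 4 were past the dim level, of which 1 rose. The one that rose was Ighm, which averaged 9.91 in GFP positive and 9.58 in GFP negative cells (limma adjusted p = 0.045). Cd79b, Cd79a and Pax5, also past the dim level, changed by -0.15, -0.18 and 0.02 and did not pass. The sums of the 7 were 901 to 1090 on GFP positive and 754 to 895 on GFP negative arrays. Ighm was by far the brightest of the 7, so these sums mostly read that gene. The part of Epcam-expressing cells in the rise of Cdh1 was not tested.

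Other genes of the same structures and pathways were read in lists, against 42.1% of all genes tested that were called, 24.6% higher and 17.5% lower, with a median change of -0.02. Higher calls made up 58.4% of calls as deposited, 69.3% with each array centred on its median and 49.0% after quantile normalization, so which direction had more calls depends on the scaling. Of 35 tested adherens junction and E-cadherin turnover genes, 13 rose, 5 fell and 17 did not pass (median 0.07). Pkp3, a desmosomal relative of p120 catenin, rose by 1.47, and Actn1, an actin crosslinker, by 1.57 (limma adjusted p = 4.8e-05 and 5.6e-05). Among the 5 that fell, chosen after their values were seen, was Vcl (vinculin, which binds alpha-catenin), with a change of -0.81. Without GFP negative 1 and GFP positive 3 the list gave 7 rises and 0 falls.

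Among 15 other cadherins tested, Celsr1, an atypical cadherin of planar polarity, rose by 1.01, Celsr2 fell by 0.62, and 13 did not pass (median -0.16), with 16 more under the dim level. Of 18 tested integrin chains, ligands and integrin-binding proteins, 9 rose, 2 fell and 7 did not pass (median 0.25). The kindlin gene Fermt3 and the talin gene Tln1, whose products activate integrins, rose by 0.64 and 0.81. The 2 that fell, named after their values were seen, were Rap1b and Rap1a, with changes of -0.45 and -0.38.

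Of 48 tested genes of beta-catenin and Wnt signalling, 15 rose, 2 fell and 31 did not pass (median 0.09). Wls, which carries Wnt proteins to the cell surface, rose by 2.72, or 0.82 with 32 linear units added. Gsk3b, Apc and Gsk3a, of the complex that marks beta-catenin for destruction, rose by 0.88, 0.62 and 0.52. Of genes known as Wnt targets in other cells, Ccnd2 rose by 0.47, Axin2 by 0.96 (0.37 with 32 added, and named after its value was seen), and Myc fell by 1.12. Ccnd1, Cd44, Sp5 and Nkd1, also known as such targets and named after their values were seen, did not pass. They changed by 0.05, -0.17, -0.12 and -0.22. The nuclear partner Lef1, named through the list of genes low in resident memory cells, changed by 0.04 and did not pass. Without GFP negative 1 and GFP positive 3, 10 rose and 1 fell.

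Of 36 tested transcription regulators and TGF-beta pathway genes known for Itgae or Cdh1, 17 rose, 2 fell and 17 did not pass (median 0.17). The TGF-beta receptor gene Tgfbr1 rose by 1.77, the inhibitors of its signalling Skil and Ski by 1.03 and 0.78, and Gata3 by 2.25, while Eomes, a T-box factor that limits resident memory formation, fell by 2.28. Zeb1, a repressor of E-cadherin in epithelium, rose by 0.73 and is named after its value was seen. Runx3, which promotes CD103 in CD8 T cells and is named through the list of genes high in resident memory cells, changed by 0.14 and did not pass.

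Genes high in resident memory CD8 T cells went both ways, with 8 of 22 tested higher, 7 lower and 7 not passing (median -0.04, and 0.03 with each array centred on its median). Rgs2 rose by 2.91 and Isg20 by 2.39, and Cd69 fell by 1.08 and Nr4a1 by 1.19. Genes low in those cells also went both ways, with 6 of 26 higher, 5 lower and 15 not passing (median 0.05, -0.03 after quantile normalization and -0.10 with the mean of each gene's probe sets). Klf2, which drives egress receptors, fell by 3.21. S1pr1, the gene of such a receptor and named after its value was seen, changed by -0.06 and did not pass. Tlr1 rose by 1.00 and Klf3 by 0.70, though other Klf3 probe sets changed by -0.26 to 0.87. Other probe sets of Actn1, Skil and Zeb1 changed by less (0.53 to 0.61, 0.31 and 0.18), those of Gsk3b by 0.00 to 0.82 and of Tln1 by 0.01 to 0.52, that of Celsr2 by -0.12, and those of Lef1 and Runx3 by -0.44 and -0.32. With 32 linear units added, the changes were 0.92 for Rgs2, -1.70 for Klf2, 1.34 for Gata3, -0.40 for Nr4a1, 0.59 for Celsr1, 0.39 for Ski and 0.36 for Apc, and -0.33 for Vcl, -0.08 for Celsr2 and -0.69 for Cd69.

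**Figure D4:**
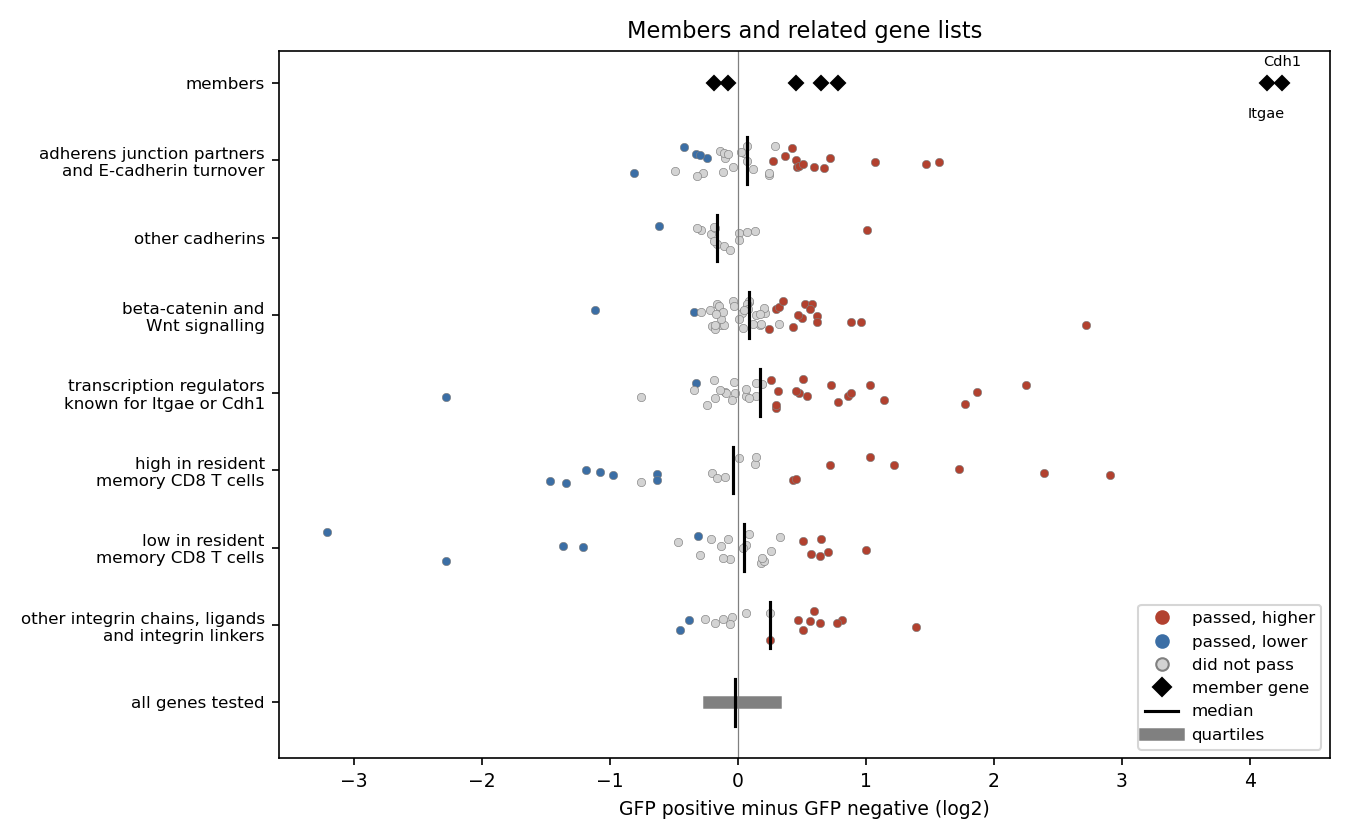
Change in log2 signal, GFP positive minus GFP negative (horizontal axis), of the 7 members and of each tested gene in 7 related lists (rows), coloured by whether it passed the limma threshold, with list medians as bars and the quartiles of all tested genes as the lowest row. Itgae and Cdh1 lie at 4.13 and 4.25, beyond every listed gene on the deposited scale but not with 32 linear units added (1.39 and 1.02, against 2.00 for Isg20), and list medians run from -0.16 to 0.25.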

How the data were processed

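Gene expression was measured in 3 GFP positive and 3 GFP negative samples, 1 array each. The deposited table holds log2 signal for 45101 probe sets, a unit read from the range of the values. It was made with Affymetrix Expression Console, per the submitters' processing notes, while the labels and notes name no method of summary, background treatment or normalization. No detection calls were used.

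Deposited values were used without further normalization. The platform annotation gives 1 symbol to 34945 probe sets, several to 932 and lists none for 9160, with 64 controls set aside. Through gene IDs, 34741 matched the RefSeq table and 0 symbols changed. A gene was read on whichever of its probe sets was brightest over all 6 arrays, and genes under the 40th percentile of mean signal (1.27) were left out, leaving 13194, while 27022 probe sets passed that level. GFP positive was compared with GFP negative by limma (version 3.58.1, under R 4.3.3), a moderated linear model fitted to all genes at once (two-sided, Benjamini-Hochberg over all genes tested, threshold 0.05). The procedure was also run on simulated data in which far fewer genes changed than were called here, so nothing is read from that run. Standard errors of members come from the same model over all probe sets. The number of arrays limits the precision.

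Members and lists were chosen with earlier results of these data known, and some genes stand in more than 1 list. List genes are named by the smallest p among those whose groups do not overlap, up to 6 a list, and by brightness among those not passing, and a gene named through 1 list may be described with another, unless the text says otherwise. Same-numbered arrays deviated together from their group means (r across genes 0.47, 0.35 and 0.25), though the labels do not say what the numbers share. Differences between arrays of the same number are therefore given for members, as a description. The main fit, with every p-value, call and SE from it, treated the arrays as unpaired, and the replicate number entered only as an alternative. Alternatives were scaling, added background, dim filters, probe set choice, variance prior, the replicate block and left-out arrays.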

Additional observations from a re-analysis of the deposited data

How the results depend on the processing

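The differences of all member probe sets whose groups stood apart upward kept their sign under each of the alternatives run for them. Single left-out arrays gave 3.79 to 4.49 and 3.10 to 3.86 for the Itgae probe sets, 3.88 to 4.51 for Cdh1, 0.61 to 0.71 for Itgb7, 0.72 to 0.81 for the brightest Ctnna1 probe set and 0.40 to 0.49 for the brightest Ctnnb1 probe set. Added background shrank Itgae and Cdh1 most, by construction more at low signal, as given above. Genes called numbered 5557 as deposited, 5858 with the replicate number as a block (replicate block), 4315 to 5604 with 1 array left out, and 3325 without GFP negative 1 and GFP positive 3, where probe sets called fell to 4374 against 8786, the adherens junction list to 7 called against 18 and the Wnt list to 11 against 17. Fewer arrays were fitted there, and the cause was not tested further. The 60th percentile filter left 2 other cadherins, of which 1 was called. The block moved no list count by over 1.5 times. Apart from members, 69 genes were followed across the alternatives, of which 48 were called. Numb lost its call with the mean of its probe sets and Epcam without the 2 arrays named above, and none of the 69 reversed. Other genes named in the text were not followed there. The low signal of Ctnnd1, and of Cdh1 in GFP negative cells, limits what the arrays can measure there.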
